A study of Bos taurus with 8 samples.

Results

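The genes described are 8 protein-coding genes that mark the macrophages and other leukocytes of the liver: C1QA, C1QB, C1QC, MARCO, CD163 and CD5L, which are strongly expressed by Kupffer cells, and LCP1 and PTPRC, which are expressed by leukocytes in general. They are 8 of the 19994 protein-coding genes in a count table of 24616 genes, and 8 of the 2415 protein-coding genes with at least 80 reads summed over the libraries, which were the genes tested. They were selected on measured values of these same data: known macrophage and leukocyte genes were picked by symbol with the differences between SNEB and MNEB libraries, and the excess in library 4M, already seen. Every difference between the groups in the 8 genes is therefore given as a description. Calls of these genes in a fit across all genes are counted only beside the share of all genes tested that were called, and no conclusion is drawn from them.

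Small RNA was sequenced from the liver of 8 lactating Holstein Friesian cows, approximately 14 days after calving, with 1 library per cow. The 4 cows in mild negative energy balance (MNEB, libraries 2M, 3M, 4M and 5M) ate grass silage without restriction with 8 kg/day of a concentrate of 21% crude protein and gave milk at 1 milking a day. The 4 cows in severe negative energy balance (SNEB, libraries 7S, 8S, 9S and 10S) had a ration limited to 25 kg/day of silage, with concentrate at 4 kg/day, and gave milk at 3 milkings a day, so that diet and milking frequency cannot be told apart. The title of library 2M and the study's table of reads place it in MNEB, while its treatment label reads SNEB and the series' design text counts 5 SNEB and 3 MNEB animals. It was analysed as MNEB. Values with it in SNEB are given for the summed level, overlap, fitted fold changes and calls of the 8 genes. They are also given for the count of all genes called and the share of protein-coding reads. Means and folds of single genes, and calls in the marker lists, are given with it in MNEB only.

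Kupffer cells are the resident macrophages of the liver sinusoids, where they clear bacteria, cell debris and aged red cells from portal blood. C1q, the recognition molecule that starts the classical pathway of complement, is assembled from the products of C1QA, C1QB and C1QC and is made mainly by macrophages, whereas hepatocytes make most of the downstream components. MARCO and CD163 are scavenger receptors, and CD5L is a scavenger receptor family protein that tissue macrophages secrete.

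The libraries were made to capture miRNAs, and the protein-coding genes were read only through short fragments of their transcripts. Between 21617227 and 33963761 reads per library were counted on genes, of which 58887 (library 3M) to 280802 (library 5M) lay on protein-coding genes. This share was 0.581% ± 0.353 in MNEB and 0.611% ± 0.0731 in SNEB (SD, n = 4 each), a difference of 0.0306 percentage points (p = 0.886, two-sided exact permutation test, for which the smallest possible p is 0.0286). Within MNEB the lowest share was 0.191% (3M) and the highest 0.928% (4M). The share of 4M was also the highest of the 8 libraries. In the study's read statistics, 4M also had the most reads discarded as too short after trimming. Whether this bears on the levels in 4M was not tested. Levels are given as counts per 1000000 protein-coding reads (CPM), which follow the share of a gene among these fragments and not its amount per cell. The labelled tissue was checked with 16 hepatocyte genes, including ALB and the fibrinogen chains, all of which were read deeply enough to test and which together held 83668 CPM in library 4M and 102941 to 199727 CPM in the other 7 libraries.

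The 8 genes were read at low depth. They took 4496 reads in all, from 181 for LCP1 to 1100 for C1QA, and 3410 of these (75.8%) came from library 4M, which held 17.3% of the protein-coding reads. The 4 SNEB libraries held 82, 96, 117 and 56 reads of the 8 genes, in the order 7S, 8S, 9S, 10S. Intervals given below are 95% exact Poisson or binomial intervals and cover counting error only, because reads amplified by PCR are not independent molecules.

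The 8 genes together were higher in MNEB than in SNEB, and library 4M stood far above the other libraries. Their summed level was 1535 CPM in library 2M, 4177 in 3M, 15942 in 4M and 1271 in 5M. In SNEB it was 583, 491, 804 and 480 CPM in libraries 7S, 8S, 9S and 10S. The lowest MNEB library thus lay above the highest SNEB library, and library 4M lay 3.82-fold above the next highest, 3M. With 2M counted in SNEB the groups overlapped, since 2M lay above 5M, and the group means were 9.16-fold apart. The group means were 5731 ± 6932 CPM in MNEB and 589 ± 150 CPM in SNEB (SD, n = 4 each), a 9.73-fold difference in which the SD of MNEB exceeded its mean. Library 4M supplied 69.5% of the MNEB sum and held 6.85 times the mean of the other 3 MNEB libraries. Without it the MNEB mean was 2328 ± 1607 CPM (SD, n = 3), 3.95-fold that of SNEB. In a piece of whole liver, fewer macrophages and less RNA of these genes per macrophage cannot be told apart.

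**Figure D1:**
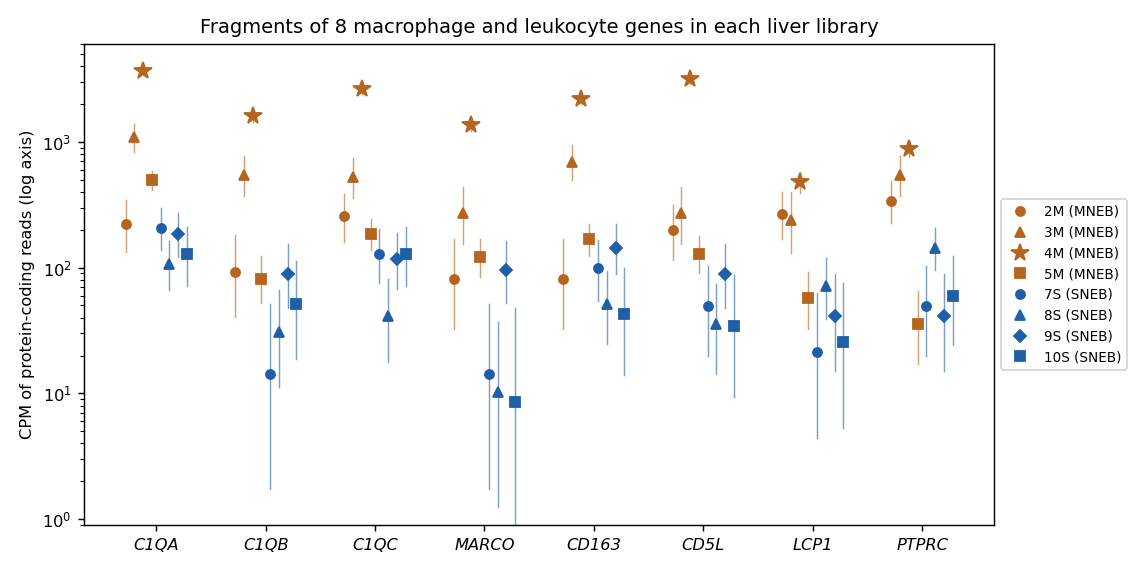
CPM of protein-coding reads (log axis) of each of the 8 genes in the 8 libraries, with 95% exact Poisson intervals as bars (that of MARCO in 10S runs below the axis, to 0.217 CPM). Library 4M is the highest library for all 8 genes, and in the SNEB libraries the points lie between 8.57 CPM (MARCO in 10S) and 206 CPM (C1QA in 7S).

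The 3 C1q chains had the most reads as a group. C1QA, the A chain (ENSBTAG00000007153), was at 221 CPM in library 2M, 1087 in 3M, 3675 in 4M and 495 in 5M, and at 206, 107, 185 and 129 CPM in libraries 7S, 8S, 9S and 10S. Every MNEB library lay above every SNEB library, but the lowest MNEB library (2M, 95% interval 133 to 345 CPM) and the highest SNEB library (7S, 138 to 296 CPM) were not separated beyond counting error. The means were 1369 ± 1579 CPM in MNEB and 157 ± 46.5 CPM in SNEB (SD, n = 4 each), 8.73-fold apart, and 3.83-fold apart without library 4M.

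C1QB, the B chain (ENSBTAG00000011196), was at 93.0 CPM in library 2M, 543 in 3M, 1613 in 4M and 81.9 in 5M. In SNEB it was at 14.2 CPM in 7S (2 reads, 1.72 to 51.3 CPM) and at 30.7, 89.3 and 51.4 CPM in 8S, 9S and 10S. Libraries 3M and 4M stood well above the rest, while 2M and 5M lay beside 9S, so that the groups overlapped. The means were 583 ± 720 and 46.4 ± 32.4 CPM (SD, n = 4 each), 12.6-fold apart, and 5.16-fold apart without 4M.

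C1QC, the C chain (ENSBTAG00000011193), was at 256 CPM in library 2M, 526 in 3M, 2613 in 4M and 185 in 5M, and at 128, 40.9, 117 and 129 CPM in 7S, 8S, 9S and 10S. The groups did not overlap, and library 8S was low among the SNEB libraries. The means were 895 ± 1155 and 104 ± 42.1 CPM (SD, n = 4 each), 8.65-fold apart, and 3.11-fold apart without 4M. In the order of genes in RefSeq (ARS-UCD2.0 assembly), the 3 C1q genes lie on 1 chromosome as neighbours, C1QB, C1QC and C1QA, with 1 uncharacterised locus between C1QB and C1QC. C1QA made up 38.8% to 65.0% of the C1q reads of a library, 46.5% (44.1% to 48.9%) in 4M and 65.0% (58.2% to 71.3%) in 5M.

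MARCO (ENSBTAG00000018473), a macrophage receptor that binds bacteria and particles, had an SD above its mean in SNEB. It was at 81.4 CPM in library 2M, 272 in 3M, 1365 in 4M and 121 in 5M. In SNEB it was at 14.2 CPM in 7S and 10.2 in 8S (2 reads each), 96.2 in 9S (14 reads) and 8.57 in 10S (1 read, 0.217 to 47.7 CPM). Library 9S lay above library 2M, so the groups overlapped, and the other 3 SNEB libraries were below every MNEB library. The means were 460 ± 609 and 32.3 ± 42.6 CPM (SD, n = 4 each), 14.2-fold apart, and 4.89-fold apart without 4M.

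CD163 (ENSBTAG00000019669), the receptor through which macrophages take up haemoglobin bound to haptoglobin, was at 81.4 CPM in library 2M, 696 in 3M, 2179 in 4M and 167 in 5M. In SNEB it was at 99.5, 51.1, 144 and 42.8 CPM in 7S, 8S, 9S and 10S. Library 2M lay inside the SNEB range, and 5M lay just above it. The means were 781 ± 971 and 84.4 ± 47.1 CPM (SD, n = 4 each), 9.25-fold apart, and 3.73-fold apart without 4M.

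CD5L (ENSBTAG00000022514), the secreted macrophage protein also called AIM, carried the strongest excess in library 4M. It was at 198 CPM in library 2M, 272 in 3M, 3137 in 4M and 128 in 5M, and at 49.8, 35.8, 89.3 and 34.3 CPM in 7S, 8S, 9S and 10S. The groups did not overlap, and library 4M lay 11.5-fold above the next library. The means were 934 ± 1470 and 52.3 ± 25.6 CPM (SD, n = 4 each), 17.9-fold apart, and 3.81-fold apart without 4M.

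LCP1 (ENSBTAG00000007079) encodes L-plastin, which bundles actin in leukocytes. It was at 267 CPM in library 2M, 238 in 3M, 477 in 4M and 57.0 in 5M, and at 21.3, 71.6, 41.2 and 25.7 CPM in 7S, 8S, 9S and 10S. Here 2M, 3M and 4M were high and 5M lay inside the SNEB range. The means were 260 ± 172 and 40.0 ± 22.7 CPM (SD, n = 4 each), 6.50-fold apart, and 4.69-fold apart without 4M.

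PTPRC (ENSBTAG00000023144) encodes CD45, the tyrosine phosphatase on the surface of all nucleated cells of the blood lineages. It was at 337 CPM in library 2M, 543 in 3M, 884 in 4M and 35.6 in 5M, and at 49.8, 143, 41.2 and 60.0 CPM in 7S, 8S, 9S and 10S. Library 5M had the lowest level of all 8 libraries, with 10 reads, and the other 3 MNEB libraries lay above every SNEB library. The means were 450 ± 356 and 73.5 ± 47.1 CPM (SD, n = 4 each), 6.12-fold apart, and 4.15-fold apart without 4M.

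Library 4M was the highest of the 8 libraries for 8 of 8 genes, as it was for 21.0% of the genes tested. It exceeded the next library by at least 3-fold for 5 of 8 (C1QA, C1QC, MARCO, CD163 and CD5L), against 1.99% of the genes tested. The excess over the next library ran from 1.63-fold for PTPRC and 1.78-fold for LCP1, through 2.97-fold for C1QB, to 5.02-fold for MARCO and 11.5-fold for CD5L. Its median was 3.25-fold over the 8 genes and 0.596-fold over all genes tested. Library 4M supplied 45.9% and 49.1% of the summed MNEB CPM of LCP1 and PTPRC, and 67.1% to 84.0% of that of the 6 Kupffer cell genes. The next highest library was 3M for 7 genes and 2M for LCP1.

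**Figure D2:**
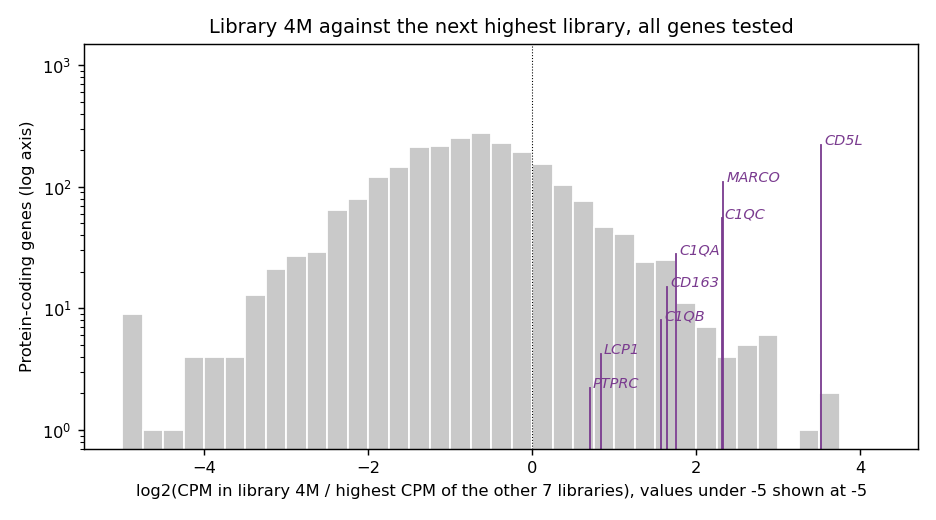
Number of protein-coding genes (of 2415 tested) by the log2 ratio of CPM in library 4M to the highest of the other 7 libraries, with each of the 8 genes marked by a line whose height carries no value. All 8 lie to the right of 0, from PTPRC (1.63-fold) to CD5L (11.5-fold), while the median of all genes tested is 0.596-fold.

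The MNEB libraries other than 4M were not alike. Library 3M lay above every SNEB library for 8 of 8 genes, 2M for 6 of 8 and 5M for 5 of 8. The share of all genes tested for which each of these libraries does so was not computed, and nothing is read from these counts. Libraries 2M and 3M both lay above every SNEB library for 6 of 8, against 13.3% of the genes tested. Library 5M was the lowest MNEB library for 5 of 8 genes, against 36.7% of the genes tested, and 2M was the lowest for the other 3. All 4 MNEB libraries lay above all 4 SNEB libraries for 3 of 8 genes (C1QA, C1QC and CD5L), against 2.40% of the genes tested. The genes were chosen with this contrast known, and nothing is read from that count. With 2M placed in SNEB (3 MNEB against 5 SNEB libraries), C1QC and CD5L overlapped, and the genes without overlap were 3 of 8 (C1QA, MARCO and CD163), against 1.82% of the genes tested. In reads per 1000000 reads on all genes (RPM), a scale on which libraries 2M and 3M, with the lowest shares of protein-coding reads, move down, 1 of 8 genes (C1QC) did not overlap, against 0.497% of the genes tested. The summed level was then 5.79 RPM in 2M, 8.00 in 3M, 148 in 4M and 10.5 in 5M, against 3.79, 3.37, 4.74 and 2.49 RPM in 7S, 8S, 9S and 10S. Library 4M supplied 85.9% of the MNEB sum on this scale, and the fold between the groups was 12 with it and 2.25 without it.

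In a fit across all 2415 genes (edgeR's quasi-likelihood test), the log2 fold changes of SNEB over MNEB of the 8 genes lay between -2.56 (standard error 0.70, PTPRC) and -4.15 (standard error 0.95, CD5L). Their median was -3.17, against -0.01 for all genes tested. Placing 2M in SNEB gave values from -1.73 (standard error 0.73, LCP1) to -3.96 (standard error 0.85, CD5L), with a median of -3.5 against -0.01. The fit without library 4M gave values from -1.62 (standard error 0.46, C1QC) to -2.19 (standard errors 0.70 for C1QB and 0.73 for MARCO), with a median of -1.90 against 0.01. All 8 values remained below 0, as 50.6% of the genes tested were with all libraries, and the largest movement was that of CD5L, from -4.15 to -1.86 (standard error 0.46). LCP1 moved least, from -2.61 (standard error 0.59) to -2.02 (standard error 0.57). Without 4M the order of the 8 genes was not resolved, since their values spanned less than 1 standard error of C1QB or MARCO.

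**Figure D3:**
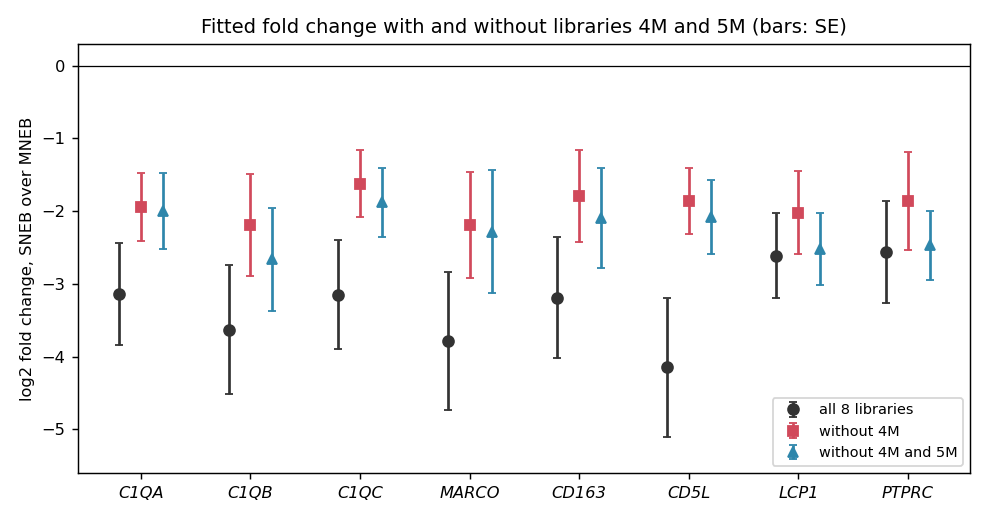
Log2 fold change of SNEB over MNEB (edgeR, bars are 1 standard error) of the 8 genes with all 8 libraries, without library 4M, and without libraries 4M and 5M. All values lie below 0, between -4.15 and -2.56 with all libraries and between -2.19 and -1.62 without 4M.

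With Benjamini-Hochberg adjustment at 0.05, edgeR's quasi-likelihood test called 3 genes (0.124% of the genes tested), FADS2 lower in SNEB (0.0414%) and ANGPTL4 and CREB3L3 higher (0.0828%). Of the 8 genes, 0 were called, while 8 of 8 were lower in SNEB at an unadjusted p under 0.05, as were 8.03% of all genes tested, with 14.5% past it in either direction. EdgeR's exact test called 8 of the 8 (1.70% of genes were called lower), DESeq2 called 6 (1.78% of genes were called lower) with MARCO not called and no adjusted p given for CD5L, and limma voom called 0. Without library 5M the quasi-likelihood test called 8 of 8, against 3.35% of genes called lower, and without 4M it called 0, with 8 of 8 at an unadjusted p under 0.05 against 4.14% of genes lower. It called 1 (C1QA) without 2M, against 0.207% of genes lower, 0 without any other single library, and 2 (LCP1 and PTPRC) without both 4M and 5M, against 0.290% of genes lower. With 2M placed in SNEB it called 3 (C1QA, C1QB and CD163), again against 0.290% of genes lower. Because the genes were chosen with this contrast known, nothing is read from these counts.

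The Kupffer cell genes and the leukocyte genes did not keep 1 ratio across the libraries. LCP1 and PTPRC together made up 39.4% (31.0% to 48.3%) of the reads of the 8 genes in library 2M and 43.8% (33.6% to 54.3%) in 8S. In the other 6 libraries they made up 7.28% (4.81% to 10.5%, 5M) to 18.7% (14.0% to 24.1%, 3M), with 8.53% (7.62% to 9.52%) in 4M. The intervals of 2M and 8S thus overlapped neither those of 3M, 4M and 5M nor those of 7S, 9S and 10S. Library 2M belongs to MNEB and 8S to SNEB. PTPRC alone made up 22.0% (15.2% to 30.0%) in 2M and 29.2% (20.3% to 39.3%) in 8S, against 2.80% to 13.0% in the other 6 libraries. For PTPRC the interval of 2M overlapped those of 3M, 7S and 10S, and the interval of 8S overlapped that of 10S. CD5L made up 19.7% (18.4% to 21.1%) of the reads in 4M and 6.50% to 12.9% elsewhere. The CD5L interval of 2M (7.68% to 19.8%) overlapped that of 4M.

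In CPM, the 6 Kupffer cell genes summed to 930 in library 2M, 3396 in 3M, 14581 in 4M and 1179 in 5M. They summed to 512, 276, 721 and 394 CPM in 7S, 8S, 9S and 10S. LCP1 and PTPRC summed to 605, 781, 1360 and 92.6 CPM in 2M, 3M, 4M and 5M, and to 71.1, 215, 82.4 and 85.7 CPM in the SNEB libraries in the same order. Library 5M was thus above every SNEB library for the Kupffer cell genes and inside the SNEB range for LCP1 and PTPRC. A list of T and NK cell genes, 20 symbols that include CD3 chains, granzymes and CCL5, summed to 512, 934, 1346 and 92.6 CPM in 2M, 3M, 4M and 5M and to 99.5, 501, 206 and 146 CPM in 7S, 8S, 9S and 10S. The 4 libraries highest for LCP1 and PTPRC (4M, 3M, 2M and 8S) were also the 4 highest for this list, and the part of T and NK cells in the levels of these genes was not tested.

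**Figure D4:**
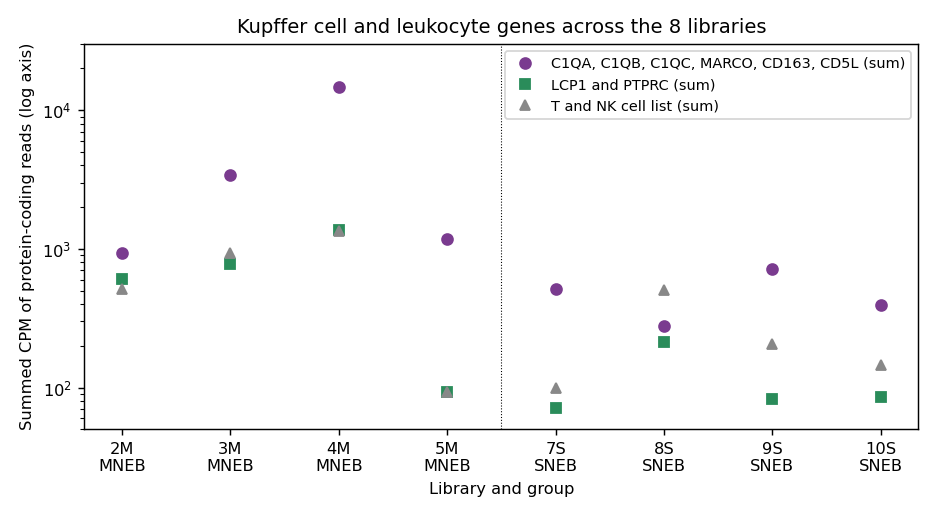
Summed CPM of protein-coding reads (log axis) of the 6 Kupffer cell genes, of LCP1 and PTPRC, and of the T and NK cell genes in each library. Library 4M is highest for all 3 sums, 2M and 8S have relatively more LCP1 and PTPRC, and 5M has 1179 CPM of Kupffer cell genes but 92.6 CPM of LCP1 and PTPRC.

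Across the 8 libraries the levels of the 8 genes moved together. Pearson correlations of log2(CPM + 1) over the 28 pairs of genes ran from 0.63 (MARCO and PTPRC) to 0.98 (C1QA and CD163), with a median of 0.90. Without library 4M (n = 7) they ran from 0.36 (MARCO and PTPRC) to 0.94 (MARCO and CD5L), with a median of 0.77. LCP1 and PTPRC correlated at 0.93, and at 0.88 without 4M. All these points share the libraries and their depth, and the choice of the genes.

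The 10 genes tested whose profile over the 8 libraries was most like the mean standardised profile of the 8 genes correlated with it at r = 0.95 to 0.98 (n = 8). In order they were BT.46809, ITGB2, DDX39, ATXN7L3, ENSBTAG00000038048, MLL3, ATP2A3, ARHGDIA, DYSF and ITM2C. ITGB2, the beta chain of the leukocyte integrins, was at 58.1, 119, 393 and 21.4 CPM in 2M, 3M, 4M and 5M and between 17.1 and 34.3 CPM in SNEB (r = 0.98, Spearman's rho 0.95). ITM2C, an integral membrane protein, was at 116, 391, 687 and 60.5 CPM in the MNEB libraries and between 7.11 and 34.3 CPM in SNEB (r = 0.95, rho 0.98). Over the 7 libraries without 4M, 6 of these 10 (BT.46809, ITGB2, DDX39, ATXN7L3, ENSBTAG00000038048 and ITM2C) were again among the 10 most alike, at r = 0.91 to 0.96 for the 10.

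Other genes of Kupffer cells and macrophages, from a list of 40 symbols of which 35 were found, were mostly read too rarely to test. The 14 tested included CTSB and GRN, which act in lysosomes, SLC40A1, the iron exporter ferroportin, and CSF1R, the receptor for the growth factor on which macrophages depend. Of these 14, 0 were called in either direction by edgeR's quasi-likelihood test, 12 were lower in SNEB at an unadjusted p under 0.05 (8.03% of all genes tested), and limma voom called 0. EdgeR's exact test called 2 (CTSS and SIGLEC1) lower, against 1.70% of all genes, and DESeq2 called 3 (CTSS, SIGLEC1 and CSF1R) lower, against 1.78%, and gave no adjusted p for FCGR3A and HMOX1. Their median log2 fold change was -1.49, and -0.51 without library 4M, against -0.01 and 0.01 for all genes tested. Without 5M the quasi-likelihood test called 5 of them lower, against 3.35% of all genes. Library 4M was highest for 12 of 14, against 21.0% of all genes. It was at least 3-fold above the next library for 4 (SIGLEC1, CSF1R, FCGR3A and HMOX1), against 1.99% of all genes. SIGLEC1, FCGR3A, HMOX1, CTSS and SPI1 had 287, 145, 314, 128 and 87 reads. Of these reads, 228, 115, 254, 73 and 65 came from 4M. These genes reached the total needed for testing only with the reads of 4M, so both counts are partly set by the filter.

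CSF1R was at 58.1, 289, 1346 and 96.2 CPM in 2M, 3M, 4M and 5M and at 49.8, 71.6, 131 and 60.0 CPM in 7S, 8S, 9S and 10S, so that 3M and 4M were above the SNEB range and 2M and 5M inside it. CTSB was at 1046, 883, 2450 and 495 CPM in the MNEB libraries and between 474 and 660 CPM in SNEB. SLC40A1 was at 407, 730, 1463 and 185 CPM in the MNEB libraries and between 206 and 316 CPM in SNEB. For both, 2M, 3M and 4M were high and 5M was near or below the lowest SNEB library. GRN was at 291, 340, 926 and 303 CPM in MNEB and between 220 and 274 CPM in SNEB, with no overlap, as for 2.40% of the genes tested.

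Genes of this list departed from the 8 in several ways, and those that follow were named after their values had been seen. CD14, the co-receptor for lipopolysaccharide, was at 221, 238, 421 and 342 CPM in MNEB and 142, 153, 343 and 223 CPM in SNEB, with 4M highest and the groups overlapping. GPNMB, a glycoprotein of lipid-laden and other macrophages, was the 1 tested gene of the list above 0 (log2 fold change 1.49), at 81.4, 17.0, 159 and 49.9 CPM in MNEB and 554, 164, 13.7 and 283 CPM in SNEB. HMOX1, which breaks down haem, was at 1187 CPM in 4M and at 28.4 to 110 CPM in the other 7 libraries, and its log2 fold change was -2.50 with 4M and 0.00 without it. The defining Kupffer cell markers VSIG4 (15 reads), TIMD4 (35 reads) and CD68 (61 reads) lay below the 80 reads needed for testing. The 22 untested gene IDs of the list, of which LGALS3 has 2, took 719 reads, of which 66.8% came from 4M.

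The list of 27 other pan-leukocyte genes gave 11 tested genes, all lower in SNEB in the fitted value. Of these, 0 were called by the quasi-likelihood test, 11 were lower at an unadjusted p under 0.05 (8.03% of all genes tested), 4 were called lower by edgeR's exact test and by DESeq2 (RAC2, DOCK2, CORO1A and ITGB2 in each, against 1.70% and 1.78% of all genes), and 0 by limma voom. Without 5M, 11 of 11 were called lower, against 3.35% of all genes. Their median log2 fold change was -2.37, and -1.34 without 4M. The summed level was 1418, 2225, 5091 and 410 CPM in 2M, 3M, 4M and 5M and 313, 777, 563 and 386 CPM in 7S, 8S, 9S and 10S. Libraries 2M, 3M and 4M lay above every SNEB library and 5M inside the SNEB range, as for LCP1 and PTPRC. ITGAL, the leukocyte integrin alpha chain of LFA-1, was at 140, 255, 683 and 14.2 CPM in MNEB and 21.3, 102, 20.6 and 60.0 CPM in SNEB, so that 5M was the lowest of the 8 libraries. RAC2, a small GTPase of leukocytes, CORO1A, an actin-binding protein, and LAPTM5, a lysosomal membrane protein, were at 341, 318 and 416 CPM in 4M and at most 170, 153 and 81.4 CPM in the other 7 libraries. CCL5, a chemokine and the 1 tested gene of the T and NK cell list, was at 374 CPM in 4M and at most 128 CPM elsewhere, in 8S. It too reached 80 reads only with those of 4M (80 of its 151 reads).

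Markers of other cells were counted in the same libraries. The class II antigen presentation genes BOLA-DRA and BOLA-DRB3 were at 552 and 313 CPM in 4M and at most 154 and 102 CPM elsewhere, with a median log2 fold change of -2.04 (-1.04 without 4M). Neutrophil genes took 25 reads in all and 0 were tested, with 5 of 12, including MPO, MMP8 and MMP9, at 0 reads, which allows up to 3 reads each. By matched symbol, B and plasma cell genes took 101 reads and cholangiocyte genes 59 reads, and 0 of each were tested. CD21, which the lists hold as CR2, was not matched and is in none of these totals. CD21 was tested, with 230 reads, of which 199 came from 4M, and reached the total needed for testing only with these. Its level was 930 CPM in 4M and at most 119 CPM elsewhere, with a log2 fold change of -3.9 (-1.54 without 4M). The red cell genes took 1 read, with HBA (2 gene IDs) and HBB at 0, which allows up to 3 uniquely aligned reads each. Fragments shared by near-identical genes were not counted, so these zeros do not show that red cell RNA was absent. The 17 stellate and other mesenchymal genes, 7 of them tested, had a median log2 fold change of 0.50 (0.27 without 4M), and 4M was highest for 0 of 7. Of these, COL3A1 and RELN were at 150 and 154 CPM in 4M and between 103 and 349 and between 71.6 and 306 CPM in the other libraries, and ECM1 and MYH11 at 168 and 42.1 CPM in 4M and at most 188 and 164 CPM in the others. The 16 hepatocyte genes had a median of -0.09 (-0.28 without 4M), and 4M was highest for 0 of 16. FGB, ALB, FGA and FGG, the 4 highest of them, were at 19527, 14698, 12529 and 9088 CPM in 4M. DESeq2 called APOH and TF lower in SNEB, against 1.78% of all genes called lower. The quasi-likelihood test called 0 of the 16, with 3 lower and 1 higher at an unadjusted p under 0.05. Of all genes tested, 8.03% were lower at this p and 14.5% passed it in either direction.

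**Figure D5:**
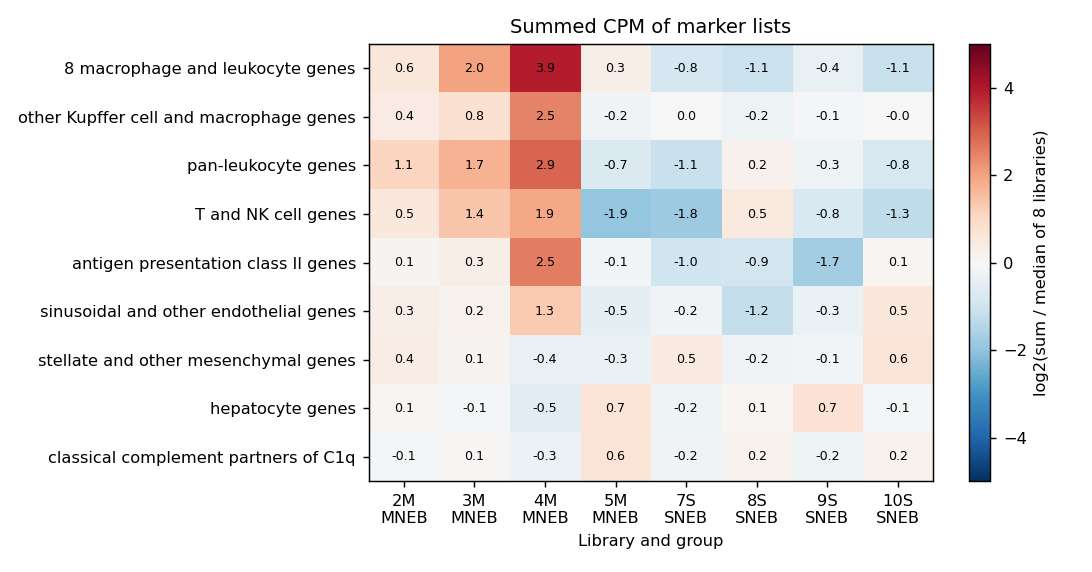
Log2 of the summed CPM of each marker list in each library over the list's median of the 8 libraries, for the 9 lists with the most reads. Library 4M has the highest sum of the 8 genes, of the other macrophage and pan-leukocyte lists and of the T and NK, class II and endothelial lists, and the lowest sum of the hepatocyte, mesenchymal and complement lists.

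The classical complement partners of C1q were among the best-read genes of the liver. C1R and C1S are the proteases bound to C1q, C3 is the central component that the pathway cleaves, and SERPING1 is the inhibitor of C1. The 8 genes of this list, all tested, had a median log2 fold change of 0.08 (-0.05 without 4M). By edgeR's quasi-likelihood test 0 of 8 were called, 0 of 8 had an unadjusted p under 0.05, and the exact test, DESeq2 and limma voom called 0. C1R was at 2186, 1460, 1459 and 2664 CPM in 2M, 3M, 4M and 5M and between 1556 and 2287 CPM in SNEB, so that the groups overlapped and 4M was the lowest library. C3, C1S and SERPING1 were at 29055, 2562 and 1384 CPM in 4M, against at most 57906, 3625 and 3101 CPM elsewhere. The 3 C1q chains summed to 570, 2157, 7901 and 762 CPM in the MNEB libraries and to 348, 179, 392 and 308 CPM in 7S, 8S, 9S and 10S.

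The leukocyte miRNAs, given in RPM, put the libraries in another order than the 8 genes did in CPM or in RPM. In RPM the 8 genes summed to 5.79, 8.00, 148 and 10.5 in 2M, 3M, 4M and 5M, so that 5M was second highest. miR-142, which is restricted to blood cells, was at 272, 559, 855 and 22.8 RPM in 2M, 3M, 4M and 5M and at 393, 417, 566 and 277 RPM in 7S, 8S, 9S and 10S. Its highest library was 4M, 1.51-fold above 9S, and the groups overlapped. miR-155 was at 33.9 RPM in 4M against 23.3 in 9S, and miR-150 at 6.20 RPM against 5.59. miR-223, a miRNA of myeloid cells, was at 8.72 RPM in 4M and highest in 2M, at 18.6 RPM. miR-342 was at 98.2 RPM in 4M and highest in 7S, at 215 RPM, with means of 96.2 ± 61.2 RPM in MNEB and 175 ± 39.6 RPM in SNEB (SD, n = 4 each). miR-146a and miR-146b were at 6.59 and 14.8 RPM in 4M and highest in 8S, at 7.33 and 46.2 RPM. All 7 were lowest in library 5M. In the study's read statistics, 5M had the highest share of uniquely aligned reads among its aligned reads. Whether this bears on the values of 5M was not tested.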

How the data were processed

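Small RNA libraries (1 per cow) were trimmed with cutadapt 1.1, checked with FastQC 0.10.0, aligned to the bovine genome (UMD3.1) with Novoalign 2.07.11 and counted per Ensembl gene with HTSeq 0.5.3p3 by the authors, who kept trimmed reads of at least 18 nt. Whether counting used strand was not stated in the labels or methods read here, so sense and antisense fragments cannot be told apart. The deposited values are raw counts of uniquely aligned reads, so that fragments shared by near-identical genes are missing. A second deposited table, of miRNA frequencies, was not used. Of the count table, 3 rows naming no gene were left out. Library 8S was read from a column with the heading 6S, which its label identifies by column letter. The 12 within-group pairs of libraries differed beyond sampling noise (chi-square per degree of freedom of at least 2.62), and each library comes from another cow.

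CPM used the sum of protein-coding counts of a library as its total, and RPM the sum over all genes. Intervals were exact Poisson or binomial at 95%. Genes with at least 80 reads in total were fitted in R 4.3.3 with edgeR 4.0.16 (TMM scaling, quasi-likelihood test, Benjamini-Hochberg adjustment at 0.05), and the procedure was tested on simulated counts. It recovered 10.1% of 2-fold, 75.7% of 4-fold and 95.5% of 8-fold changes, and 7.54% of its calls were false. The counts were drawn around 1 level per gene and group, so the procedure was not tested with a library set apart like 4M. Standard errors were derived from the fold change and its F statistic. Alternatives were other scalings, filters and tools (edgeR's exact test, DESeq2 1.42.0, limma 3.58.1 voom), library 2M in SNEB, libraries 4M and 5M left out, and each library left out. Where libraries were left out, the filter still summed the reads of all 8 libraries, so genes could pass it through a library that was left out. Tables were handled with Python 3.11.15, pandas 2.3.3, numpy 2.4.6 and scipy 1.17.1 and drawn with matplotlib 3.10.9.

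The 8 genes and all marker lists were chosen with earlier results of these data known. Named from each list were the up to 4 tested genes with the highest mean CPM and any gene that edgeR's quasi-likelihood test called, the 10 genes most like the 8 by Pearson correlation of log2(CPM + 1), and 4 leukocyte miRNAs (miR-142, miR-223, miR-150 and miR-155). Genes and miRNAs named outside this rule were picked after their values were seen. The non-overlap on RPM and with 2M in SNEB, the likeness without 4M and the share of PTPRC alone were added after seeing the data. The values of 1 macrophage gene are not reported here.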

Additional observations from a re-analysis of the deposited data

Results flagged for a closer look

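Of 20 checks for 1 library apart from the rest of its group (Dixon's ratio of the gap to the range, at its 95% critical value for 4 libraries, which chance passes in about 1 of 20), 5 passed. Library 4M was the highest MNEB library for CD5L (0.952), C1QC (0.859) and MARCO (0.852). These genes were chosen with the excess in 4M known, so that the passes of 4M restate the choice and support nothing. Among all genes tested, 169 of 2415 (7.0%) passed in MNEB, and 64 (2.7%) passed there with 4M highest. In SNEB, library 9S was the highest for MARCO (0.936), at 96.2 CPM against 8.57 to 14.2 CPM in the other 3 libraries, and 8S was the lowest for C1QC (0.866), at 40.9 CPM against 117 to 129 CPM. MARCO rested there on 14 reads in 9S and on 1 or 2 reads in each of the others. The share of all genes tested that passed in SNEB was not computed, and nothing is read from these passes.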

How the results depend on the processing

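Over 20 alternatives of the fit the 8 genes gave 159 log2 fold changes, all 159 below 0, from -5.40 to -1.62. LCP1 was below the filter of 240 reads and gave none there. By more than 1 SD 3 of them moved, C1QC (-1.62) and CD5L (-1.86) without 4M and CD5L (-2.08) without 4M and 5M. The summed level gave a log2 ratio of -3.28, and -3.61 to -1.98 leaving out 1 library, the last without 4M. The median of the other macrophage genes, -1.49, ran from -1.82 to -0.51, again the last without 4M. The count of protein-coding genes called, 3 (1 lower, 2 higher), was 73 with DESeq2, 73 with the exact test, 53 with library sizes over all genes (43 lower, 10 higher), 147 with no filter (105 lower, 42 higher), 40 with a read in every library, 6 with upper quartile scaling (3 lower, 3 higher), 8 with 2M in SNEB and 14 without 4M and 5M. Leaving out 1 library gave 2 to 121, the last without 5M, and 7 without 2M. Library sizes over all genes moved the median of all genes to 0.13. The cause of these changes was not tested. The difference in the share of protein-coding reads, 0.0306 percentage points, turned to -0.0842 with 2M in SNEB, -0.0373 without 2M and -0.0992 without 3M, and ran to 0.146 without 4M. No paired analysis was possible because MNEB and SNEB libraries share no replicate number. Depth limits the SNEB values, where single genes rest on 1 to 29 reads per library.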

Other observations

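Library 4M was at least 3-fold above the next highest library for 48 of the 2415 genes tested. By symbol, these include 5 of the 8 genes, 10 genes of the other lists and 33 genes matched to no list. EMR1 and CD21 are among the 33, although the lists hold them under the names ADGRE1 and CR2. The genes named here were picked after their values had been seen. EMR1, the macrophage adhesion receptor whose newer symbol ADGRE1 found no match in the count table, was at 341 CPM in 4M and at most 50.9 CPM elsewhere. CFP, which encodes the complement stabiliser properdin, was at 313 CPM in 4M and at most 39.2 CPM elsewhere. AXL, a receptor for the uptake of dying cells, was at 369 CPM against at most 50.9 CPM, and IRF8, a transcription factor of myeloid cells, at 393 CPM against at most 68.5 CPM. EMR1, CFP, AXL and IRF8 had 87, 83, 99 and 127 reads, of which 73, 67, 79 and 84 came from 4M. They passed the filter of 80 reads only with those of 4M, so their place in this count is partly set by the filter. The lysosomal genes PSAP and CTSD were at 5058 and 1431 CPM in 4M and at most 1174 and 463 CPM in the other libraries. B2M, the light chain of class I molecules, was at 1669 CPM against at most 492 CPM.

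Of the 4 endothelial genes tested, 4M was the highest library for 3, and their median log2 fold change was -0.73. CDH5, the adhesion protein of endothelial junctions, was at 93.0, 102, 626 and 57.0 CPM in 2M, 3M, 4M and 5M and at 21.3, 0, 6.87 and 8.57 CPM in 7S, 8S, 9S and 10S. Every MNEB library was above every SNEB library, as for 2.40% of the genes tested. STAB1, a scavenger receptor of sinusoidal endothelium, was at 233, 204, 159 and 114 CPM in MNEB and 192, 76.7, 206 and 197 CPM in SNEB, with the groups overlapping and 4M in the middle of the range. STAB2 was at 304 CPM in 4M and at most 248 CPM elsewhere, and KDR at 257 CPM against at most 223 CPM, both with 10S next and with the groups overlapping. Of these 4, edgeR's quasi-likelihood test called 0, and 1 (CDH5) was lower in SNEB at an unadjusted p under 0.05, against 8.03% of all genes. EdgeR's exact test called CDH5, against 1.70% of all genes called lower. DESeq2 called 0 with no adjusted p given for CDH5, and limma voom called 0. Without 5M the quasi-likelihood test called CDH5, against 3.35% of all genes called lower. The part of endothelial cells in the levels of the 8 genes was not tested.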
